A study of Zea mays subsp. mays with 11 samples.

Results

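Argonaute-loaded small RNAs of maize (Zea mays) anthers were compared between 5 mm and 2 mm anther length in plants with working AGO18 alleles. AGO18 is the grass-specific Argonaute clade. The plants were ago18HT, triple heterozygotes for CRISPR-Cas9 frameshift alleles of ago18a and ago18b and for a Mu transposon insertion in ago18c, in a mostly B73 background and without the editing transgene. The groups were ago18HT-5mm (3 libraries, anthers after meiosis) and ago18HT-2mm (3 libraries, anthers in meiosis), and every ago18HT library thus came from plants that carried 1 mutant copy of each gene. The members were all 659 PHAS loci of the table, described as 430 21-PHAS loci and 229 24-PHAS loci by their names. The 24-PHAS loci were split further into 154 meiotic and 75 premeiotic loci by the locus annotation of the study, which rests on other anther libraries. These were 6 of the 11 libraries of the series. The others came from ago18HM siblings, homozygous for the same alleles (3 libraries at 5 mm, 2 libraries at 2 mm), and are used where the question is whether a change with anther length was shared or differed.

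PHAS loci are transcribed into long noncoding precursors, which are made double-stranded and cut head to tail into phased small RNAs (phasiRNAs). In the 21-nt pathway miR2118 directs the first cut of the precursor and DCL4 dices it, and in the meiotic 24-nt pathway miR2275 and DCL5 do so. Premeiotic 24-nt phasiRNAs are already abundant before meiosis. PhasiRNAs act in complex with Argonaute proteins, and in Arabidopsis several Argonautes select small RNAs by the 5′ base, AGO5 with a preference for C and AGO1 for U. The TraPR kit recovers small RNAs in Argonaute complexes on an ion exchange column, so the values below concern loaded and not all small RNAs.

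Each PHAS locus yields many phasiRNAs, and the most abundant one of each locus, as annotated by the study in B73, is the handle by which loci are compared here. The sequences below are those of the 21-PHAS loci with the largest called changes among loci whose libraries did not overlap between lengths, 7 lower at 5 mm followed by 7 higher at 5 mm, and of 4 meiotic 24-PHAS loci that were higher at 5 mm. They are shown because the 5′ base, given as a capital, differed between the lists. Of the 7 lower loci, 4 began with C and 3 with A, and of the 7 higher loci, 0 began with C, 5 with A and 2 with U. Over all 430 21-PHAS loci, C was the first base at 13.0% and A at 75.3%, so 0 of 7 is little removed from the class.
B73_21PHAS_39762: Cagaagugguaucugaggcua
B73_21PHAS_38572: Acaaauguugguauauggucu
B73_21PHAS_3927: Ccaggcagcucgaacgcacuc
B73_21PHAS_39887: Caauaaguagaucagccacug
B73_21PHAS_21246: Agcucuuuugcuugaucgucc
B73_21PHAS_7652: Caauaagcauccucacaacuc
B73_21PHAS_39758: Aaucuuuuagucaucacacug
B73_21PHAS_52767: Acaagcaaaagaauaguggac
B73_21PHAS_39871: Acugccaaugauccgucgccu
B73_21PHAS_21101: Aguggcugcagcaauagaggc
B73_21PHAS_21113: Aacacuugcaucuguucguuc
B73_21PHAS_54542: Auuaauucaccaagauagcgu
B73_21PHAS_22898: Ugucucacuaguguaagcuuc
B73_21PHAS_17595: Ucuauggagacguuugguuac
B73_24PHAS_36488: Agcugaacuacaaauuaugcgaga
B73_24PHAS_35108: Aacgugguaguagucgagcaguga
B73_24PHAS_35087: Agucacugucaggucgggaucgag
B73_24PHAS_14681: Agagaauuccuaaugaagcaucuu

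Values are CPM as deposited (reads of a locus scaled by a denominator of its library), 1 value per locus and library, and this denominator was 6353477 to 9708348 reads in ago18HT-5mm and 33076189 to 43704102 reads in ago18HT-2mm. Sequencing depth and anther length therefore cannot be told apart by design. PHAS loci took 30.5% to 34.7% of the denominator in ago18HT-5mm and 22.1% to 32.5% in ago18HT-2mm. Correlations of log2(CPM + 1) across loci were 0.939 to 0.979 between libraries of ago18HT-5mm and 0.878 to 0.958 between those of ago18HT-2mm. The lowest pair of correlations included ago18HT-2mm replicate 1, which stood apart: it was the highest of the 2 mm libraries at 69 of 75 premeiotic loci and the lowest at 125 of 154 meiotic loci, so results on 24-PHAS loci are given with and without it. In whole anthers, fewer cells of a type and less loaded RNA per cell cannot be told apart. The genotype and tissue labels were not checked, since transcripts of AGO18 and of cell-type markers were not analysed here.

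The first question was whether the total of each class differed between the lengths. 21-PHAS loci summed to 71226, 71384 and 77805 CPM in ago18HT-5mm, against 77902, 77677 and 76943 CPM in ago18HT-2mm. These totals overlapped and lay within a narrow range, with a ratio of 0.948 (two-sided exact permutation p = 0.3). Meiotic 24-PHAS loci summed to 266871, 249651 and 219707 CPM in ago18HT-5mm, against 117705, 237337 and 206990 CPM in ago18HT-2mm. Their ratio was 1.31 (exact permutation p = 0.2), and it was 1.11 without ago18HT-2mm replicate 1, whose total was the lowest of the 6. Premeiotic 24-PHAS loci summed to 8520, 8765 and 7862 CPM in ago18HT-5mm, against 25306, 9651 and 11076 CPM in ago18HT-2mm. Every 5 mm library was below every 2 mm library in this class (ratio 0.546, exact permutation p = 0.1), and the ratio was 0.809 without ago18HT-2mm replicate 1. With 3 libraries against 3, 0.1 is the smallest p that can be reached, and adjusted over 7 sums and shares no p was below 0.233.

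**Figure D1:**
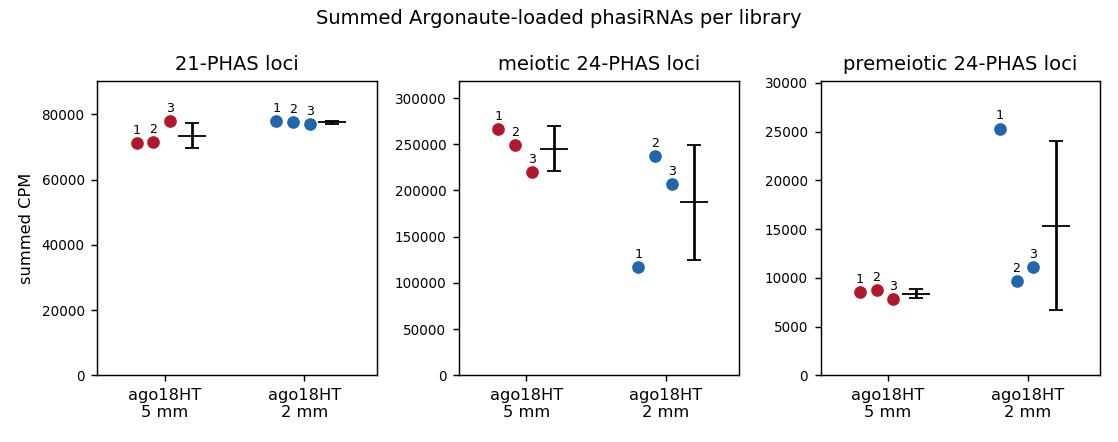
Summed CPM of each class in the 3 ago18HT-5mm and 3 ago18HT-2mm libraries, with replicate numbers beside the points and the mean ± SD as a bar. 21-PHAS sums lie between 71226 and 77902 CPM in all 6 libraries, while ago18HT-2mm replicate 1 is lowest for meiotic loci (117705 CPM) and highest for premeiotic loci (25306 CPM).

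Below these totals, single loci changed in both directions. Among the 430 21-PHAS loci, 52 had lower values (12.1%) and 21 had higher values (4.88%) in ago18HT-5mm than in ago18HT-2mm (limma on log2(CPM + 1), Benjamini-Hochberg adjusted p below 0.05 over 659 loci and fold change above 1.5). Over all 659 loci, 7.89% were called lower and 4.7% were called higher. The 52 lower loci together fell to 6419, 6792 and 7225 CPM in ago18HT-5mm, against 13339, 13981 and 13488 CPM in ago18HT-2mm. The 21 higher loci together had 4790, 4518 and 4992 CPM in ago18HT-5mm, against 2905, 2514 and 2580 CPM in ago18HT-2mm. The balance of the calls depended on the scaling: 32 lower and 37 higher 21-PHAS loci were called after centring on the median 21-PHAS locus, and 37 lower and 35 higher after median ratio scaling. The median log2 fold change of the class was -0.02, and it was 0.07 and 0.04 under these scalings, so that its sign depended on the scaling. The libraries of the 2 lengths did not overlap at 130 loci with lower and 104 loci with higher values at 5 mm, where the share over all 659 loci was 24% and 22.9%. With single ago18HT libraries left out, the lower calls numbered 27 to 41 and the higher calls 11 to 20. The fit shares its spread with the ago18HM libraries, and without ago18HM-5mm replicate 1 there were 61 lower and 33 higher calls. Lower calls numbered 27, 29 and 33 without ago18HT-5mm replicates 1, 2 and 3, and 32 and 31 without ago18HT-2mm replicates 2 and 3. Higher calls were 13 and 11 without ago18HT-5mm replicates 1 and 3, and 12 without ago18HT-2mm replicate 2 or 3.

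Of the 154 meiotic 24-PHAS loci, 10 were higher (6.49%) and 0 were lower at 5 mm by the same limma test. Over all 659 loci these shares were 4.7% and 7.89%. At an unadjusted p under 0.05, 37 meiotic loci were higher and 1 was lower (99 and 101 of all 659 loci). Without ago18HT-2mm replicate 1, 23 meiotic loci were higher and 6 were lower at this threshold. The log2 fold change was then below 0 at 62 of the 154 loci, against 37 with that library. The voom fit also gave 10 higher and 0 lower meiotic loci. The median log2 fold change was 0.39, and it was 0.17 without ago18HT-2mm replicate 1, where 10 loci were again called higher (8 of them the same loci). The 10 calls dropped to 6, 5 and 5 without ago18HT-5mm replicates 1, 2 and 3. Of the 75 premeiotic loci, 0 were higher and 0 were lower with limma, 0 and 15 at an unadjusted p under 0.05, and 0 and 0 with voom. Their median log2 fold change was -0.77 with 70 of 75 below 0.

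**Figure D2:**
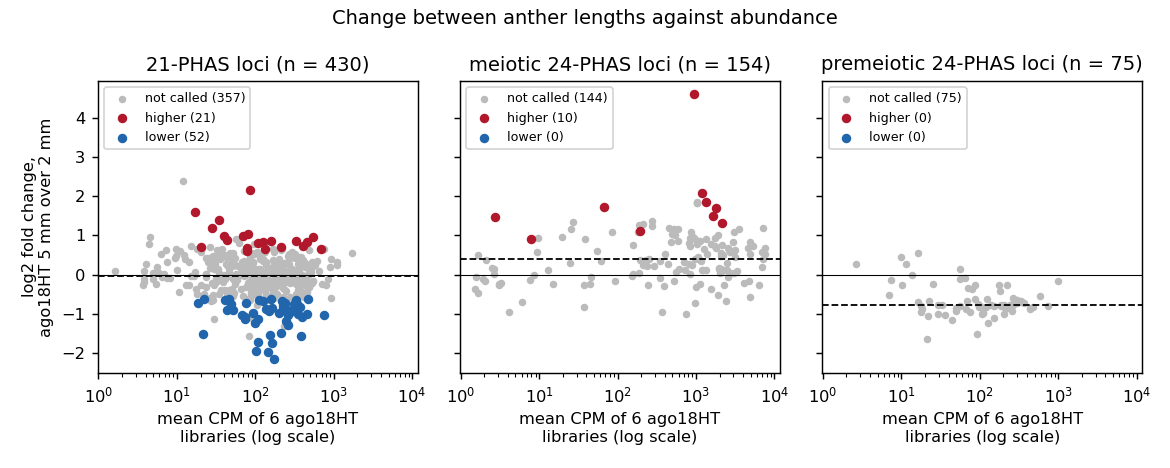
Log2 fold change of ago18HT-5mm over ago18HT-2mm against the mean CPM of the 6 ago18HT libraries (log scale), 1 point per locus, with the class median as a dashed line. Called 21-PHAS loci lie on both sides of 0 (21 higher, 52 lower), the 10 called meiotic loci lie above 0, and no premeiotic locus is called although the class median is -0.77.

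The decreases among 21-PHAS loci were led by B73_21PHAS_39762 (B73 RefGen_v5, chr7:18460193-18461187, minus strand), which lies outside annotated genes. It had 58.9, 61.7 and 67.9 CPM in ago18HT-5mm, against 264, 294 and 295 CPM in ago18HT-2mm. The lengths did not overlap, and the values within each length were close (log2 fold change -2.16, SE 0.18, limma adjusted p = 0.000109). B73_21PHAS_3927 (chr1:167614010-167614633, plus strand) had 44.4, 39.1 and 39.6 CPM in ago18HT-5mm, against 181, 144 and 164 CPM in ago18HT-2mm. It fell about as far (log2 fold change -1.96, SE 0.15, limma adjusted p = 0.000102), and its annotated phasiRNA also begins with C. B73_21PHAS_39887 (chr7:21585556-21586581, minus strand) had 78.2, 69.7 and 74.8 CPM in ago18HT-5mm, against 251, 239 and 260 CPM in ago18HT-2mm (log2 fold change -1.74, limma adjusted p = 0.00267). The most abundant of these loci, B73_21PHAS_7652 (chr1:290321319-290323850, minus strand), had 158, 182 and 245 CPM in ago18HT-5mm, against 554, 612 and 557 CPM in ago18HT-2mm. All 4 of these loci carry a 5′-C phasiRNA.

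The other 3 of the largest decreases carry 5′-A phasiRNAs. B73_21PHAS_21246 (chr4:5750976-5751514, minus strand) had 54.3, 46.2 and 45.4 CPM in ago18HT-5mm, against 158, 197 and 139 CPM in ago18HT-2mm. B73_21PHAS_39758 (chr7:18393143-18393577, plus strand) had 64.5, 69.0 and 104 CPM in ago18HT-5mm, against 199, 257 and 224 CPM in ago18HT-2mm. At these loci the lengths were well apart, by a log2 fold change of -1.73 and -1.53 (limma adjusted p = 0.000672 and 0.00267). B73_21PHAS_38572 (chr6:168503729-168504749, plus strand) was less even, with 111, 34.1 and 44.4 CPM in ago18HT-5mm, against 177, 215 and 277 CPM in ago18HT-2mm (log2 fold change -1.97, SE 0.42, limma adjusted p = 0.0134). Its adjusted p rose to at most 0.0576 when a single ago18HT library was left out, above 0.05 without ago18HT-5mm replicate 2 or 3 or ago18HT-2mm replicate 3. All 7 loci were also lower in ago18HM-5mm than in ago18HM-2mm, in libraries that share none with the ago18HT comparison. Over the class, 37 of the 52 lower loci were called lower in ago18HM as well. In ago18HM, 67 of all 430 21-PHAS loci and 20.2% of all 659 loci were called lower.

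Among increases whose libraries did not overlap, B73_21PHAS_52767 (chr10:24284150-24284738, minus strand) had the largest increase. It had 29.4, 19.4 and 29.3 CPM in ago18HT-5mm, against 9.70, 6.77 and 6.94 CPM in ago18HT-2mm (log2 fold change 1.61, SE 0.31, limma adjusted p = 0.00856). B73_21PHAS_39871 (chr7:21313820-21314569, minus strand, within the span of the protein-coding gene LOC118473015) had 62.0, 32.7 and 59.3 CPM in ago18HT-5mm, against 16.9, 15.2 and 23.1 CPM in ago18HT-2mm. The second of its 5 mm values was nearest to the 2 mm values, and its adjusted p exceeded 0.05 without ago18HT-5mm replicate 1 or 3 or ago18HT-2mm replicate 2, reaching 0.0581. B73_21PHAS_17595 (chr3:132611426-132614065, minus strand, overlapping the protein-coding gene LOC103650567) was the most abundant of the 7, with 678, 713 and 753 CPM in ago18HT-5mm, against 427, 324 and 347 CPM in ago18HT-2mm (log2 fold change 0.97, SE 0.15, limma adjusted p = 0.00399). B73_21PHAS_54542 (chr10:119083844-119084591, plus strand) had 84.8, 98.7 and 97.3 CPM in ago18HT-5mm, against 50.3, 43.0 and 45.9 CPM in ago18HT-2mm. Both loci showed about a doubling with tight replicates, 1.95-fold and 2.02-fold by the means. B73_21PHAS_22898 (chr4:76847091-76847683, minus strand) had 53.2, 55.6 and 51.1 CPM in ago18HT-5mm, against 25.1, 25.5 and 28.4 CPM in ago18HT-2mm (limma adjusted p = 0.0343, above 0.05 without any one of the 6 libraries and at most 0.109). One more locus was called higher although its libraries overlapped: B73_21PHAS_31474, which lies outside the naming rule, had 180, 50.9 and 194 CPM in ago18HT-5mm, against 56.4, 18.3 and 17.1 CPM in ago18HT-2mm (log2 fold change 2.17, SE 0.56, limma adjusted p = 0.0343). Of the 21 higher loci, 8 were called higher in ago18HM too. In ago18HM, 22 of all 430 21-PHAS loci and 3.95% of all loci were called higher.

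**Figure D3:**
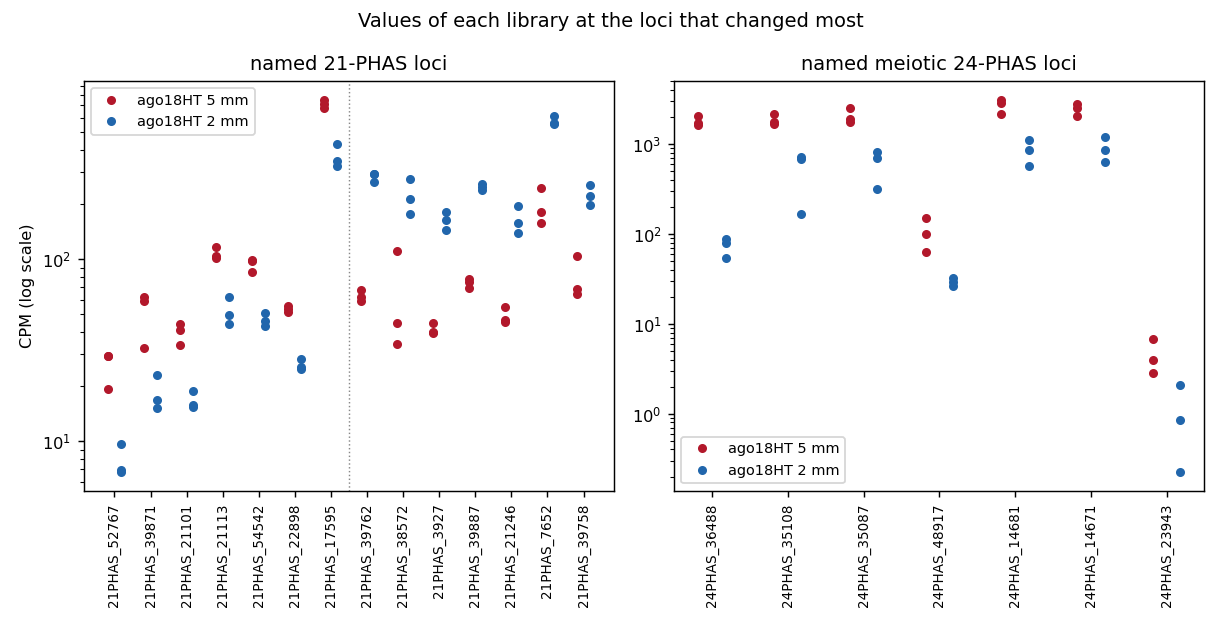
CPM (log scale) of each ago18HT library at the loci with the largest called changes whose libraries did not overlap, with ago18HT-5mm points left of ago18HT-2mm points. The left panel shows 7 higher and 7 lower 21-PHAS loci, separated by a dotted line, and the right panel shows 7 meiotic 24-PHAS loci, of which B73_24PHAS_36488 has 1615 to 2063 CPM at 5 mm and 54.0 to 88.0 CPM at 2 mm.

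The 3 most abundant 21-PHAS loci were not among the calls. B73_21PHAS_21116 (chr4:3846664-3847416, minus strand) had 2085, 1884 and 2100 CPM in ago18HT-5mm, against 1628, 1314 and 1217 CPM in ago18HT-2mm (log2 fold change 0.55, limma adjusted p = 0.0995). B73_21PHAS_21386 and B73_21PHAS_12188 changed by 0.31 and 0.24 on the log2 scale (limma, adjusted p of 0.196 and 0.309). At all 3 loci the 5 mm libraries were above the 2 mm libraries, by less than 1.5-fold. The order of 21-PHAS loci by mean CPM was much the same at both lengths (Spearman's rho 0.939 across 430 loci, which are not independent replicates and share their libraries).

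The 21-PHAS loci that were lower at 5 mm differed from the others in the 5′ base of their annotated phasiRNA. Of the 56 loci with a 5′-C phasiRNA, 17 were lower (30.4%) and 0 were higher with limma (5 higher at an unadjusted p under 0.05, 1 higher with voom, and 2 higher after centring on 21-PHAS loci or median ratio scaling). Of the 324 loci with 5′-A, 34 were lower (10.5%) and 17 were higher. Of the 30 loci with 5′-G, 2 were higher and 0 were lower with limma (4 lower at an unadjusted p under 0.05, 0 with voom), and of the 20 loci with 5′-U, 1 was lower and 2 were higher. So C was the first base at 13.0% of all 21-PHAS loci, at 32.7% of the lower loci and at 0 of the 21 higher loci. Together the 56 5′-C loci had 8581, 9304 and 9285 CPM in ago18HT-5mm, against 12183, 12001 and 12018 CPM in ago18HT-2mm. The 324 5′-A loci had 55304, 54455 and 60390 CPM in ago18HT-5mm, against 58672, 59015 and 58077 CPM in ago18HT-2mm. The 5′-C sums were apart by a ratio of 0.75, and the 5′-A sums overlapped. The median log2 fold change was -0.25 for 5′-C, -0.02 for 5′-A, 0.30 for 5′-G and 0.23 for 5′-U loci.

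The 5′ base was also set beside abundance and beside the ago18HM libraries. Among the 144 most abundant 21-PHAS loci, 9 of 19 5′-C loci and 15 of 110 5′-A loci were lower. Among the 143 loci of intermediate abundance these counts were 6 of 22 and 12 of 108, and among the 143 least abundant ones 2 of 15 and 7 of 106. In this last set the libraries were apart and lower at 3 of 15 5′-C and 21 of 106 5′-A loci, which are near-equal shares. They were so at 14 of 22 and 34 of 108 loci of intermediate abundance, and at 9 of 19 and 40 of 110 of the most abundant loci. Over all 659 loci the libraries were apart and lower at 24%. In the ago18HM libraries, 26 of the 56 5′-C loci (46.4%) and 36 of the 324 5′-A loci (11.1%) were lower at 5 mm, with medians of -0.58 and -0.06. After centring on 21-PHAS loci, 11 5′-C and 21 5′-A loci were lower in ago18HT-5mm. These are counts over lists with no test of the lists. The table gives 1 value per locus, so how far other phasiRNAs of a locus share the first base of the most abundant one was not tested.

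**Figure D4:**
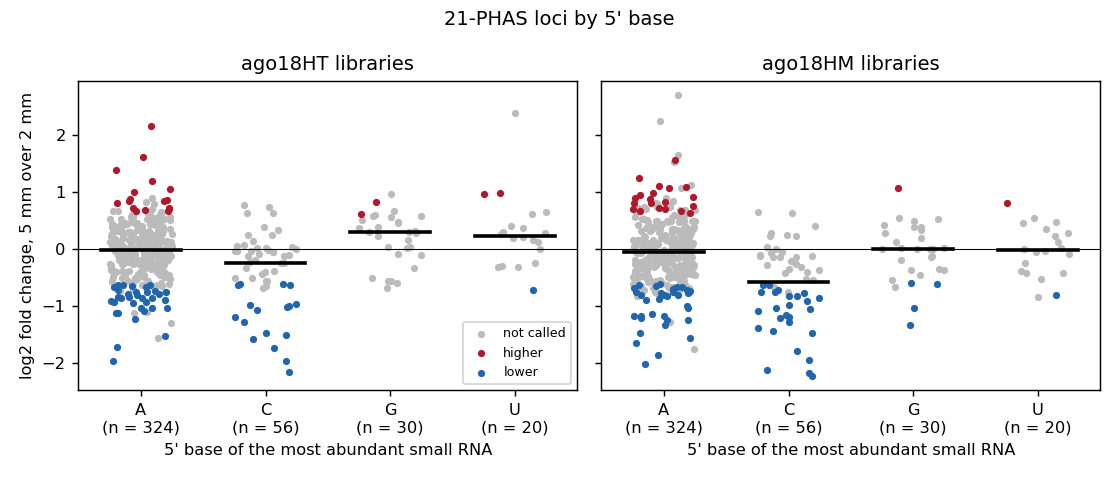
Log2 fold change of 5 mm over 2 mm at the 430 21-PHAS loci, grouped by the 5′ base of the annotated most abundant small RNA, in ago18HT libraries (left) and ago18HM libraries (right), with the group median as a bar. The median of the 56 5′-C loci is -0.25 in ago18HT and -0.58 in ago18HM, and no 5′-C locus is called higher in either panel (2 are in ago18HT after centring on 21-PHAS loci).

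Neighbouring 21-PHAS loci did not all move together. Loci no more than 100 kb apart were joined into runs, and the runs below were picked with their values known. Over all 430 21-PHAS loci, 12.1% were called lower and 4.88% higher. Over all 659 loci these shares were 7.89% and 4.7%. In the run of 23 loci at chr7:21174773-21663816, 3 were higher and 3 were lower at 5 mm, with log2 fold changes of -1.74 at B73_21PHAS_39887 to 1.40 at B73_21PHAS_39871. The run of 22 loci at chr4:5697613-5995665 had 1 higher and 5 lower loci. In contrast, the 10 loci at chr4:3773799-3849366 had 3 higher and 0 lower loci and a median log2 fold change of 0.47. This run held B73_21PHAS_21101 (40.8, 33.8 and 43.9 CPM in ago18HT-5mm, against 18.9, 15.9 and 15.5 CPM in ago18HT-2mm), B73_21PHAS_21113 (117, 105 and 101 CPM in ago18HT-5mm, against 49.5, 62.4 and 44.0 CPM in ago18HT-2mm) and the most abundant locus of the class, B73_21PHAS_21116. The 17 loci at chr7:18017576-18478011, where B73_21PHAS_39762 and B73_21PHAS_39758 lie, had 0 higher and 3 lower loci (17.6%), not far from the shares of the class. They summed to 1847, 1734 and 1965 CPM in ago18HT-5mm, against 2505, 2640 and 2669 CPM in ago18HT-2mm.

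Among meiotic 24-PHAS loci B73_24PHAS_36488 stood far from the rest. It lies at chr6:111847220-111847676 with no strand given, within the span of the protein-coding gene LOC103629764. It had 1615, 1699 and 2063 CPM in ago18HT-5mm, against 88.0, 54.0 and 79.6 CPM in ago18HT-2mm, a 24.3-fold increase of the mean (log2 fold change 4.60, SE 0.27, limma adjusted p = 1.49e-05). Its 2 mm values were not lowered in replicate 1. It rose as far in ago18HM, to a mean of 1648 CPM in ago18HM-5mm, against 57.0 CPM in ago18HM-2mm (log2 fold change 4.88, limma adjusted p = 2.41e-05), and the difference between genotypes was -0.28 (limma adjusted p = 0.758). The low-abundance locus B73_24PHAS_23943 (chr4:155449899-155451484, minus strand) was also called higher in both genotypes, with 6.77, 3.91 and 2.81 CPM in ago18HT-5mm, against 0.85, 2.09 and 0.22 CPM in ago18HT-2mm. Its ago18HT call (limma adjusted p = 0.0385) was lost without any one of 5 libraries, ago18HT-2mm replicate 2 being the exception, with a highest adjusted p of 0.146. The call was also lost with reads thinned to equal depth, with a pseudocount of 0.1 and in a fit of only the 6 ago18HT libraries. Another locus of this kind, B73_24PHAS_880, averaged 10.6 CPM in ago18HT-5mm and 5.20 CPM in ago18HT-2mm.

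The other 7 called meiotic loci included 2 of lower abundance, B73_24PHAS_48917 and B73_24PHAS_774, of which B73_24PHAS_774 averaged 266 CPM in ago18HT-5mm and 122 CPM in ago18HT-2mm. B73_24PHAS_14681 (chr2:234984622-234985591, plus strand) had 2893, 2158 and 3118 CPM in ago18HT-5mm, against 573, 1111 and 866 CPM in ago18HT-2mm (log2 fold change 1.71, SE 0.25, limma adjusted p = 0.00336). B73_24PHAS_14671 (chr2:234934303-234935539, plus strand) had 2513, 2057 and 2756 CPM in ago18HT-5mm, against 625, 1183 and 865 CPM in ago18HT-2mm. These neighbours share their most abundant phasiRNA, printed above for B73_24PHAS_14681, and reads with several positions were counted at each, so they may not be separate measurements. B73_24PHAS_35087 (chr6:39124707-39125912, plus strand) had 2529, 1899 and 1749 CPM in ago18HT-5mm, against 315, 811 and 701 CPM in ago18HT-2mm (log2 fold change 1.85, SE 0.35, limma adjusted p = 0.00828). B73_24PHAS_35108 (chr6:40252935-40253270, no strand given) had 1768, 1662 and 2140 CPM in ago18HT-5mm, against 165, 722 and 674 CPM in ago18HT-2mm. At both of these loci ago18HT-2mm replicate 1 was the lowest library, and the call at B73_24PHAS_35108 (limma adjusted p = 0.0208) was lost without any one of the 5 mm libraries, with an adjusted p of at most 0.077. That call was also lost in a fit of only the 6 ago18HT libraries. B73_24PHAS_48917 (chr9:28393408-28394882, plus strand) had 150, 63.0 and 100.2 CPM in ago18HT-5mm, against 32.3, 26.1 and 29.3 CPM in ago18HT-2mm, with no low value in replicate 1.

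Chromosome 6 held 4 of the 10 called meiotic loci, which is 19.0% of its 21 meiotic loci. The called share was 20% on chromosome 2 (2 of 10 loci) and 6.49% over all 154 meiotic loci. The 21 meiotic loci of chromosome 6 had a median log2 fold change of 0.93. They summed to 40872, 39133 and 38609 CPM in ago18HT-5mm, against 12190, 29960 and 25775 CPM in ago18HT-2mm. The lowest of these sums was that of ago18HT-2mm replicate 1. In the run of 7 loci at chr6:38832321-38964090 the libraries did not overlap at 6 loci, all higher at 5 mm, and 0 were called. The run of 6 loci at chr5:1487630-1493209 summed to 1641, 2076 and 1911 CPM in ago18HT-5mm, against 286, 1382 and 1177 CPM in ago18HT-2mm, with 5 loci apart and 0 called. Libraries were apart and higher at 5 mm at 30.5% of all meiotic loci and at 22.9% of all 659 loci. In both runs ago18HT-2mm replicate 1 was far below the other 2 mm libraries (3394 against 11559 and 10415 CPM in the run on chromosome 6). Loci of the run on chromosome 6 are not all separate measurements: B73_24PHAS_35078 and B73_24PHAS_35085 share their most abundant phasiRNA, and so do B73_24PHAS_35075 and B73_24PHAS_35082, together with B73_24PHAS_56665 on a scaffold. The last 3 had nearly equal values in each library, from 1380 to 1688 CPM in ago18HT-5mm and from 123 to 814 CPM in ago18HT-2mm.

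The next question was whether growth from 2 mm to 5 mm changed loaded phasiRNAs differently in ago18HT and ago18HM. Tested as the difference of the 2 changes, 52 meiotic loci had a higher change in ago18HT (8.04% of all 659 loci were called higher and 0.152% lower). The median log2 fold change of meiotic loci was 0.39 in ago18HT and -1.06 in ago18HM. Of the 10 meiotic loci called higher in ago18HT, 7 also passed this test, where 52 of all 154 meiotic loci passed. The other 3 of the 10 were B73_24PHAS_36488, B73_24PHAS_23943 and B73_24PHAS_880. The tested difference contains the ago18HT change that picked these 10 loci, so their overlap was favoured in advance. The count of 52 fell to 12 without ago18HM-2mm replicate 2, to 17 to 21 without any one ago18HM-5mm library, and to 18 or 19 without any one ago18HT-5mm library. It was 25 after centring on 21-PHAS loci and 33 after median ratio scaling.

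The smallest p for this difference was at B73_24PHAS_48391 (chr9:14069161-14071221, no strand given). It had 2432, 2370 and 1681 CPM in ago18HT-5mm, against 852, 1574 and 1577 CPM in ago18HT-2mm, which did not pass the test within ago18HT (log2 fold change 0.73, limma adjusted p = 0.092). In ago18HM its means were 55.0 CPM at 5 mm and 383 CPM at 2 mm. B73_24PHAS_32590 (chr5:219764853-219765833, no strand given) had 3197, 2423 and 2513 CPM in ago18HT-5mm, against 2142, 2262 and 2181 CPM in ago18HT-2mm, and in ago18HM its means were 190 CPM at 5 mm and 723 CPM at 2 mm. The changes in ago18HT and ago18HM differed by 3.52 and 2.23 on the log2 scale at these loci (limma adjusted p = 0.00417 and 0.00597). Among 21-PHAS loci only B73_21PHAS_6427 passed this test, with a higher change in ago18HT, and among premeiotic loci only B73_24PHAS_20630 did, with a lower one. Across the 430 21-PHAS loci the log2 fold changes of both genotypes had a Pearson's r of 0.68 and a Spearman's rho of 0.71, and across the 154 meiotic loci 0.06 and -0.29. No library is shared by the 2 changes, and loci are not independent replicates.

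The most abundant meiotic loci were B73_24PHAS_30716 and B73_24PHAS_30735 on chromosome 5, which share their most abundant phasiRNA, and B73_24PHAS_4394 on chromosome 1. B73_24PHAS_30716 had 8683, 10003 and 9361 CPM in ago18HT-5mm, against 4060, 6778 and 7221 CPM in ago18HT-2mm, apart but not called (log2 fold change 0.68, limma adjusted p = 0.172). B73_24PHAS_4394 had 10092, 9575 and 5074 CPM in ago18HT-5mm, against 4061, 7483 and 7130 CPM in ago18HT-2mm, with overlap. Between 20 and 23 meiotic loci held 50% of the class sum in each of the 6 libraries, against 67 to 80 of the 21-PHAS loci.

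Premeiotic 24-PHAS loci mostly had lower values at 5 mm, and no single locus passed the test. B73_24PHAS_37655 (chr6:145732052-145734679, plus strand, overlapping the lncRNA gene LOC103630170) had the smallest p, with 37.6, 59.1 and 29.6 CPM in ago18HT-5mm, against 279, 72.9 and 79.5 CPM in ago18HT-2mm (log2 fold change -1.52, SE 0.50, limma adjusted p = 0.075). B73_24PHAS_36538 had 83.0, 109.9 and 72.5 CPM in ago18HT-5mm, against 377, 129.8 and 134 CPM in ago18HT-2mm. B73_24PHAS_45206 had 10.6, 14.7 and 13.1 CPM in ago18HT-5mm, against 55.3, 15.8 and 23.3 CPM in ago18HT-2mm. At all 3 loci the lengths did not overlap, and ago18HT-2mm replicate 1 was the highest 2 mm library. Without it the median log2 fold change of the class was -0.24 with 59 of 75 loci below 0, and 3 loci were lower at an unadjusted p under 0.05. The libraries of the 2 lengths did not overlap at 25 loci (33.3%), all lower at 5 mm, against 24% over all 659 loci. Without ago18HT-2mm replicate 2, 1 locus was called lower, B73_24PHAS_45206 (limma adjusted p = 0.0464).

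The most abundant premeiotic locus was 1 of 4 of its class at which ago18HT-2mm replicate 1 was the lowest 2 mm library. B73_24PHAS_35105 (chr6:40122405-40125870, no strand given) had 1048, 826 and 854 CPM in ago18HT-5mm, against 567, 1479 and 1246 CPM in ago18HT-2mm, with overlap between the lengths. B73_24PHAS_48293 (chr9:12058888-12062850, minus strand) had 478, 548 and 468 CPM in ago18HT-5mm, against 1670, 582 and 683 CPM in ago18HT-2mm. B73_24PHAS_51550 (chr9:151893610-151897518, plus strand) had 427, 492 and 449 CPM in ago18HT-5mm, against 1048, 466 and 591 CPM in ago18HT-2mm. In these loci replicate 1 was the highest 2 mm library.

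Some loci differed more between libraries of 1 length than between the lengths. An SD of log2(CPM + 1) above 2 within ago18HT-5mm or ago18HT-2mm was found at 9 of 430 21-PHAS, 4 of 154 meiotic and 7 of 75 premeiotic loci. Of these 20 loci, 0 were called between lengths with limma or voom or had an unadjusted p under 0.05. Over all 659 loci, 7.89% were called lower and 4.7% higher with limma. The spread that picked the 20 loci also enters these tests, so a lack of calls was favoured in advance. Of the 20 loci, 8 lie within chr1:290260211-291858704 and were high in replicate 3 of both lengths. B73_21PHAS_7740 had 2.36, 2.37 and 208 CPM in ago18HT-5mm, against 0.641, 0.786 and 124 CPM in ago18HT-2mm. B73_24PHAS_7713, a premeiotic locus of the same stretch, had 1.89, 1.03 and 39.5 CPM in ago18HT-5mm, against 0.137, 0.151 and 56.1 CPM in ago18HT-2mm. At 17 of the 35 PHAS loci in this stretch, replicate 3 of both lengths was above the other 4 libraries, and the share over all loci was not counted. Of the 8 variable loci of the stretch, 6 were 21-PHAS and 2 were 24-PHAS loci, all picked for their spread. The ends of the stretch are those of these 8 loci, so it was chosen with its values in view. The count of 17 therefore has no background to be set against.

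Other loci of this kind followed other libraries. The meiotic locus B73_24PHAS_26392 had 876, 677 and 10.04 CPM in ago18HT-5mm, against 1.62, 767 and 575 CPM in ago18HT-2mm, so that it was low in replicate 3 at 5 mm and in replicate 1 at 2 mm. B73_24PHAS_30723 showed the opposite pattern over the same libraries, with 14.6, 8.34 and 710 CPM in ago18HT-5mm, against 354, 4.78 and 4.16 CPM in ago18HT-2mm. B73_21PHAS_53648 was low in replicate 2 of both lengths, at 60.3, 4.43 and 66.0 CPM in ago18HT-5mm, against 103, 1.87 and 96.5 CPM in ago18HT-2mm. The plants were mostly and not wholly of B73 background and reads were mapped to B73, and whether haplotypes differ between libraries at these loci was not tested.

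**Figure D5:**
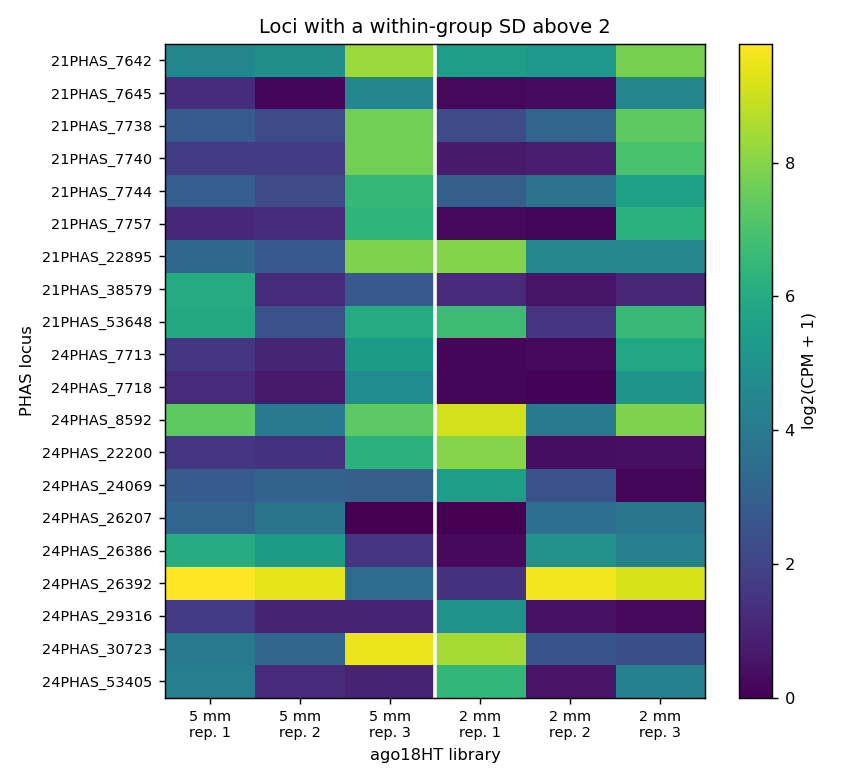
Log2(CPM + 1) in the 6 ago18HT libraries at the 20 loci with a within-length SD above 2, 5 mm libraries left of the white line and 2 mm libraries right of it. B73_21PHAS_7740 and B73_24PHAS_7713 are high in replicate 3 of both lengths, while B73_24PHAS_26392 is low in 5 mm replicate 3 and 2 mm replicate 1.

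Loci can also share reads. In all, 43 of the 659 loci share their annotated most abundant phasiRNA with at least 1 other locus (20 sequences), 4 of them among the calls, and these are uncertain as separate measurements. Annotated RefSeq genes overlapped 92 of the 659 loci and 8 of the 35 named loci.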

How the data were processed

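The deposited table held CPM values of 659 PHAS loci in 11 TraPR small RNA libraries, and groups came from the sample titles. According to the study's methods and processing notes, replicates came from distinct plants, and the authors mapped reads with Bowtie 1.3.1 to B73 RefGen_v5, counted them with featureCounts 1.6.3, multi-mapping reads at each position, and computed CPM with edgeR 4.0.2. The size range of counted reads is not given in the sources used here. The CPM denominators were recovered from the step of the values (a whole number of reads within 0.1 for 100% of values), and which reads they cover is not stated. Between 5 and 35 values per library were of 1 to 20 reads, so the step rests on high values too. A count of 0 allows up to 3 reads (0.309 to 0.472 CPM in ago18HT-5mm, 0.0686 to 0.0907 CPM in ago18HT-2mm), which covers counting error only.

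A filter of 1 CPM or more in 2 or more libraries left all 659 loci. Log2(CPM + 1) was fitted with limma 3.58.1 in R 4.3.3, with 4 group means over all 11 libraries and trended eBayes, with Benjamini-Hochberg adjustment of two-sided p-values over the 659 loci. Calls needed both an adjusted p below 0.05 and a fold above 1.5. Because 1 CPM is added before the log2, changes of low loci are understated. Class sums were compared by two-sided exact permutation tests. The fit was tested on simulated counts that had the same dispersion at every locus and in every group. The spread of these libraries was unequal, with a median SD of log2(CPM + 1) at premeiotic loci of 0.25 in ago18HT-5mm and 0.97 in ago18HT-2mm. The simulation therefore does not show how the fit behaves at such a spread. Named loci were the 7 largest non-overlapping called changes per class and direction, the 3 premeiotic loci with the smallest p, the 3 most abundant loci of each class and the 2 smallest p of the genotype difference. Other loci were named after their values were seen. Members and lists were chosen with earlier results of these data known. Positions, classes and most abundant small RNAs are from the study's locus annotation, and genes are from RefSeq (Zm-B73-REFERENCE-NAM-5.0). Alternatives were other pseudocounts, filters, scalings, thresholds, variance fits, a replicate block, thinned reads and leaving out each library, and a voom fit was added after the data were seen.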

Additional observations from a re-analysis of the deposited data

Results flagged for a closer look

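Results in which the change from 2 mm to 5 mm differed between ago18HT and ago18HM, by the test of the difference itself, stand out for a closer look. The change was higher in ago18HT at 52 meiotic loci and at 1 21-PHAS locus, and lower at 1 premeiotic locus (limma, Benjamini-Hochberg adjusted p below 0.05 and fold above 1.5). Among named loci, the log2 change in ago18HT exceeded that in ago18HM by 3.52 at B73_24PHAS_48391 (adjusted p = 0.00417), 2.23 at B73_24PHAS_32590 (adjusted p = 0.00597), 2.74 at B73_24PHAS_14671 (adjusted p = 0.00597), 2.67 at B73_24PHAS_14681 (adjusted p = 0.00731) and 3.50 at B73_24PHAS_35087 (adjusted p = 0.00731). It exceeded it by 2.05 at B73_24PHAS_30716 (adjusted p = 0.0355), 2.06 at B73_24PHAS_30735 (adjusted p = 0.0455), 2.05 at B73_24PHAS_48917 (adjusted p = 0.0458) and 2.74 at B73_24PHAS_35108 (adjusted p = 0.0497). All of these adjusted p-values are from limma over 659 loci. B73_24PHAS_48391 and B73_24PHAS_32590 were named for the smallest p of this same test. B73_24PHAS_14671, B73_24PHAS_14681, B73_24PHAS_35087, B73_24PHAS_48917 and B73_24PHAS_35108 were named for their ago18HT change, which the difference contains. Small p-values at these loci were therefore favoured in advance, and ago18HM-2mm had only 2 libraries. B73_24PHAS_14671 shares its most abundant phasiRNA with B73_24PHAS_14681, and B73_24PHAS_30716 with B73_24PHAS_30735.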

How the results depend on the processing

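Calls of ago18HT-5mm against ago18HT-2mm depended on scaling and threshold. 21-PHAS calls were 37 higher and 32 lower after centring on 21-PHAS loci, 35 higher and 37 lower after median ratio scaling, and 10 higher and 25 lower at an adjusted p below 0.01, where 4 meiotic loci were higher. Higher loci made up 37.3% of all calls in the fit as reported, 60.5% after centring and 56.0% after median ratio scaling, which moved the median of all loci by 0.10 and 0.06 on the log2 scale. Other settings that left out no single library kept these counts within 1.5 times of the reported ones. With single ago18HT libraries left out, 21-PHAS calls were 11 to 20 higher and 27 to 41 lower, meiotic calls 5 to 10 higher, and premeiotic calls 0 to 1 lower. With single ago18HM libraries left out, an alternative added after seeing the data that changes only the shared spread, the counts were 18 to 33 higher and 39 to 61 lower 21-PHAS and 9 to 11 higher meiotic loci. Without ago18HM-5mm replicate 1, 33 higher and 61 lower 21-PHAS and 11 higher meiotic loci were called. Whether the replicate numbers pair the libraries is not stated, and the fit as reported did not pair them. Correlations of deviations were -0.0095, 0.57 and 0.31 for libraries numbered 1, 2 and 3 at both lengths. They were -0.47 to 0.11 for differently numbered libraries, so pairing by number remains possible for numbers 2 and 3. A replicate block gave 15 higher and 36 lower 21-PHAS and 10 higher meiotic calls. For the difference between genotypes, meiotic calls were 34 with a pseudocount of 5, 25 after centring, 33 after median ratio scaling, 36 with the replicate block and 12 to 55 with single libraries left out. The call at B73_21PHAS_6427 was lost after centring (0 calls), with thinned reads (0) and with the replicate block (0), and that at B73_24PHAS_20630 with the block (0), and both counts were 0 to 1 with single libraries left out. The 21-PHAS sum ratio was 0.794 as a share of all PHAS CPM, and the premeiotic ratio was 0.461 to 0.809 with single libraries left out. Of the 21 named calls 15 held in all alternatives recomputed for them, which left out ago18HT but not ago18HM libraries, and no named value changed sign with a call. The causes of these differences were not tested. The 5 mm libraries were the shallower ones. The edgeR and DESeq2 alternatives were not run: only 5 to 35 values per library were of 1 to 20 reads, fewer than required here to treat the deposited CPM as counts in a count test, and the voom and thinned fits on the recovered reads stand in their place.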
